A study of Mus musculus with 6 samples.

Results

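The genes described here encode the SLAM family of receptors, the adhesion receptor CD2 with its ligand CD48, the adaptor that serves the SLAM receptors, and the receptors of T cells that bind nectins and nectin-like proteins. They were chosen by symbol as Slamf1, Slamf6, Ly9, Cd84, Cd48, Cd2, Sh2d1a, Cd226, Cd96 and Crtam, and each of the 10 was found as 1 row among the 24470 rows of the count table. All 10 passed the filter on low counts, as did 11666 genes in all.

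SLAM receptors are immunoglobulin-type proteins that sit between a T cell and its partner cell, and most of them bind a copy of themselves on the opposite cell. Their cytoplasmic tails recruit the small adaptor SAP, encoded by Sh2d1a, which brings in the kinase FYN, and in helper T cells this axis is known for its part in cytokine production and in the contact with B cells. CD2 binds CD48 in the mouse and strengthens T cell contacts at an early stage of recognition. CD226 and CD96 bind the poliovirus receptor CD155, which the inhibitory receptor TIGIT binds as well, and CRTAM binds the nectin-like protein CADM1.

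Male C57BL/6J mice gave the spleens and skin-draining lymph nodes from which naive CD4+ T cells were isolated by magnetic sorting, and the cells were then held for 6 h on plastic coated with antibodies to CD3 and CD28 at 1 µg/mL. In the CCL19 group, 3 libraries, the culture also held recombinant mouse CCL19, a ligand of the chemokine receptor CCR7, and in the no-CCL19 group, 3 libraries, it did not. Both groups therefore received the activating antibodies, no library of unstimulated cells is among the 6, and neither the age of the mice nor the concentration of CCL19 is stated in the labels. The labels name neither separate animals nor separate cultures behind the replicates, so the p-values measure the spread between these libraries, which may be technical.

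The libraries held between 16978736 and 27429898 counts. CCL19 replicate 3 stood nearer to no-CCL19 replicate 3 (chi-square per degree of freedom 5.19) than to CCL19 replicate 1 (16.8) or CCL19 replicate 2 (11.7), so values without single libraries are given beside the results. The defining genes of the labelled cell type were present, with Cd4 at 570.2 ± 25.6 CPM with CCL19 and 634 ± 52.5 CPM without it, and Cd3e at 334 ± 16.1 and 342 ± 9.7 CPM (CPM, counts scaled to library size with TMM factors; mean ± SD, n = 3 each). Cd4 was lower in each CCL19 library than in any no-CCL19 library (log2 fold change -0.15, edgeR adjusted p = 0.257).

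With CCL19, the SLAM receptor genes Slamf1 and Cd84 and the nectin-like receptor gene Crtam stood 1.31-fold, 1.19-fold and 1.28-fold higher, the adaptor gene Sh2d1a stood at 0.807-fold, and the other 6 lay between 0.889-fold and 1.07-fold. For Slamf1, Cd84 and Crtam every CCL19 library lay above every no-CCL19 library, for Sh2d1a every CCL19 library lay below, and for the other 6 the groups overlapped. Groups that do not overlap were found in 15.3% of all tested genes with CCL19 higher and in 14.5% with CCL19 lower, together 29.8%, so the 4 of 10 here stand against a pattern common in these libraries. The median log2 fold change was -0.03 over the 10 genes and -0.00074 over all tested genes. In bulk RNA, a change in the share of cells that express a gene and a change in the RNA per cell cannot be told apart.

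**Figure D1:**
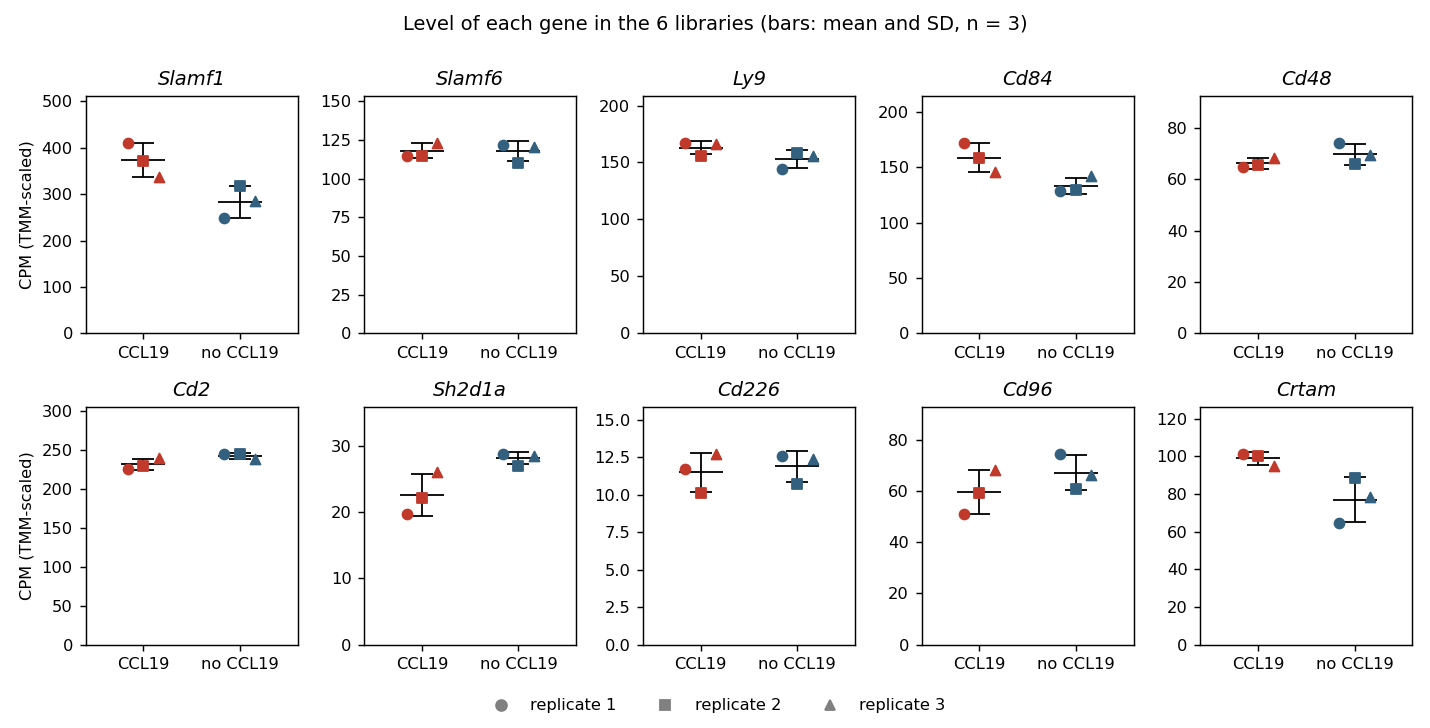
Level of each of the 10 genes (CPM, TMM-scaled, linear axes from 0) in the CCL19 libraries and the no-CCL19 libraries. Symbols mark replicates, and bars give the mean and SD of 3 libraries. Slamf1, Cd84 and Crtam lie higher in all CCL19 libraries, Sh2d1a lies lower, and the groups of the other 6 genes overlap.

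The main test, edgeR's quasi-likelihood test with Benjamini-Hochberg adjustment over all tested genes, called none of the 10 genes at an adjusted p under 0.05 and none of the 11666 genes tested (0%). The lowest edgeR adjusted p of any tested gene was 0.0505, just past the threshold, so the absence of calls depends on where the threshold lies. At an unadjusted p under 0.05 edgeR held 3 of the 10 higher and 1 lower, against 14.5% and 13% of all tested genes, and limma-voom also called none. DESeq2 called Slamf1, Cd84 and Crtam higher and none of the 10 lower, against 6.55% of genes called higher and 5.6% called lower, 12.2% in all, among the 9613 to which it gave an adjusted p. The authors' deposited table of changed genes lists the same 3 of the 10, each as higher with CCL19, and its 1168 entries match the DESeq2 calls made here in identity and direction. Both rest on the same libraries, so the match is not independent evidence for these genes.

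**Figure D2:**
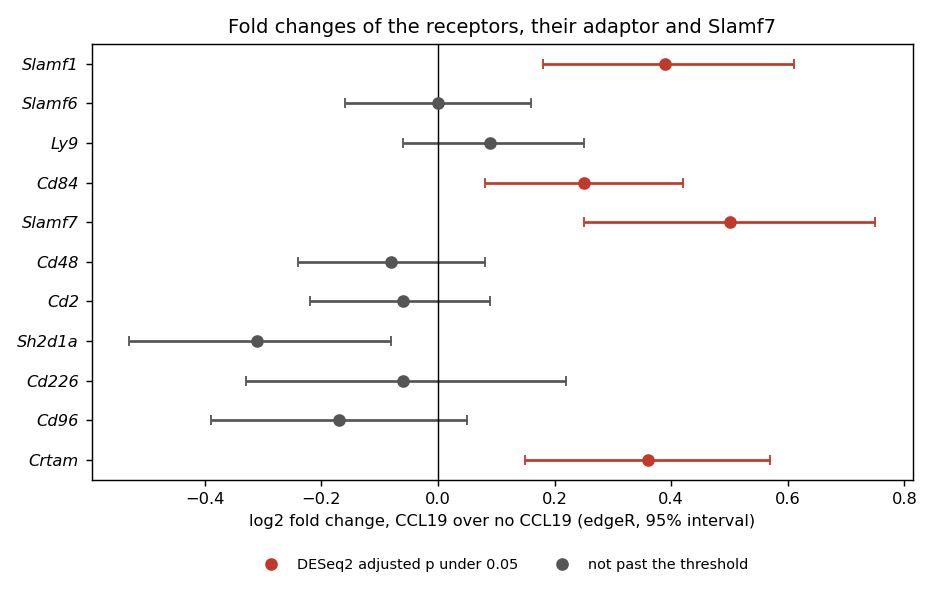
Log2 fold change, CCL19 over no CCL19, of the 10 genes and of the neighbouring SLAM family gene Slamf7, from edgeR with 95% intervals for each gene alone. Red points are genes past the DESeq2 threshold: Slamf1 (0.39), Cd84 (0.25), Slamf7 (0.50) and Crtam (0.36). The interval of Sh2d1a (-0.53 to -0.08) lies below 0, though the gene passed neither test.

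Slamf1 (NCBI Gene 27218, mm10 chromosome 1, 171767132 to 171801184) encodes SLAM itself, a receptor that binds itself and is known to increase on activated T cells. Its level was 410.0, 372 and 337 CPM in the CCL19 libraries and 249, 318 and 286 CPM in the no-CCL19 libraries. All CCL19 libraries were higher, and the gap between the closest libraries, CCL19 replicate 3 and no-CCL19 replicate 2, was small beside the spread within each group. The means were 373 ± 36.5 CPM with CCL19 and 284 ± 34.6 CPM without it (SD, n = 3 each), a log2 fold change of 0.39 ± 0.10 (SE; edgeR adjusted p = 0.0507, DESeq2 adjusted p = 0.00618). The DESeq2 call was lost without CCL19 replicate 1 (0.32, DESeq2 adjusted p = 0.0907), without CCL19 replicate 2 (0.40, DESeq2 adjusted p = 0.0648) and without no-CCL19 replicate 1 (0.30, DESeq2 adjusted p = 0.0549).

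Cd84 (NCBI Gene 12523, chromosome 1, 171839697 to 171890718) encodes another self-binding SLAM receptor, with a known part in lasting contacts between T and B cells. Its level was 172, 159 and 146 CPM with CCL19 and at 129, 129.6 and 142 CPM without it. The groups did not overlap, and CCL19 replicate 3 lay just above no-CCL19 replicate 3. The means were 159 ± 13.1 CPM with CCL19 and 133 ± 7.35 CPM without it (SD, n = 3 each), a log2 fold change of 0.25 ± 0.08 (SE; edgeR adjusted p = 0.0727, DESeq2 adjusted p = 0.0409). DESeq2 kept its call only without CCL19 replicate 3 (0.31, DESeq2 adjusted p = 0.00999) and without no-CCL19 replicate 3 (0.30, DESeq2 adjusted p = 0.0281), and lost it without any one of the other 4 libraries, with 0.19 as the smallest log2 fold change, without CCL19 replicate 1 (DESeq2 adjusted p = 0.234).

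Slamf6 (NCBI Gene 30925, chromosome 1, 171917537 to 171943868) encodes Ly108, a SLAM receptor of T and B cells that binds itself. Its level was 115, 115 and 123 CPM with CCL19 and 122, 110.3 and 120.4 CPM without it. The groups overlapped and their means were the same at this precision, 118 ± 4.91 and 118 ± 6.45 CPM (SD, n = 3 each). The log2 fold change was 0.00 with a 95% interval from -0.16 to 0.16 (edgeR adjusted p = 0.995).

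Ly9 (NCBI Gene 17085, chromosome 1, 171588613 to 171607410) encodes SLAMF3, the SLAM receptor with a duplicated extracellular part. Its level was 167, 156 and 166 CPM with CCL19 and 144, 158 and 156 CPM without it. CCL19 replicate 2 lay within the range of the no-CCL19 libraries, and the log2 fold change was 0.09 with a 95% interval from -0.06 to 0.25 (edgeR adjusted p = 0.423). Slamf6 and Ly9 were thus measured tightly enough for their intervals to leave out a fold change as large as that found for Slamf1. The difference between these genes and Slamf1 was not itself tested.

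Summed over the 4 SLAM receptor genes, the level was 864, 802 and 772 CPM with CCL19 and 644, 716 and 705 CPM without it. Slamf1 supplied 47.4%, 46.4% and 43.6% of that sum with CCL19 and 38.6%, 44.4% and 40.6% without it, and the shares overlapped between the groups. Neither the sum nor the shares were corrected for gene length. Within single libraries the ratio of Slamf1 to Slamf6 counts, which needs no scaling to library size, was 3.56, 3.25 and 2.73 with CCL19 and 2.03, 2.88 and 2.38 without it. That ratio also overlapped, because no-CCL19 replicate 2 lay above CCL19 replicate 3. B cells carry several of these receptors too, and the summed level of 8 B cell markers overlapped between groups, at 32.7 to 37.1 CPM with CCL19 and 33.2 to 41.0 CPM without it. Of those 8 markers, 7 overlapped on their own, and Cd79a was lower in every CCL19 library (log2 fold change -0.46, edgeR adjusted p = 0.228).

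These receptor genes lie side by side. From Cd244a to Slamf6 the table listed 8 rows within 385 kb of chromosome 1 (171559193 to 171943868): Cd244a, Ly9, Slamf7, the microRNA row Mir7683, Cd48, Slamf1, Cd84 and Slamf6, in that order. Slamf7 (NCBI Gene 75345, 171632403 to 171653037), which is not among the 10, encodes a self-binding SLAM receptor known from natural killer cells, plasma cells and cytotoxic T cells. Its level was 96.8, 91.1 and 76.9 CPM with CCL19 and 50.1, 69.3 and 68.3 CPM without it, with no overlap. Its log2 fold change of 0.50 ± 0.12 (SE; edgeR adjusted p = 0.0505, DESeq2 adjusted p = 0.00504) was above that of each of the 10 genes, and without no-CCL19 replicate 1 it was 0.36 (DESeq2 adjusted p = 0.0458). DESeq2 lost the Slamf7 call without CCL19 replicate 1 (0.42, DESeq2 adjusted p = 0.0792) and without CCL19 replicate 2 (0.47, DESeq2 adjusted p = 0.0698). Cd244a, the gene of the CD48 receptor 2B4, had 4 to 13 counts in a library and was not tested.

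Along the cluster, the genes called by DESeq2 were therefore Slamf7, Slamf1 and Cd84, and those not called were Ly9, Cd48 and Slamf6. Called and uncalled genes are interleaved, with Cd48 between Slamf7 and Slamf1 and with Slamf6 next to Cd84. A call for a gene and none for its neighbour is not a test of the difference between them, and no such difference was tested. Slamf7 shares 9.24% of its annotated exon bases with an antisense gene, Gm37787, in GENCODE M21, and the strand setting of the counting is not stated in the labels.

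**Figure D3:**
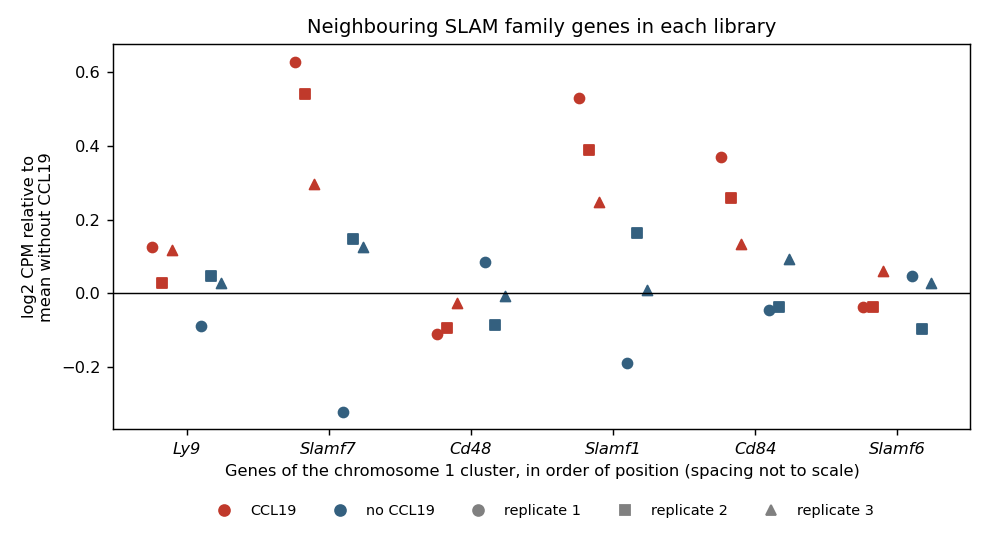
Log2 CPM of 6 SLAM family genes of the chromosome 1 cluster in each library, relative to the mean of the 3 no-CCL19 libraries, with genes in order of position and spacing not to scale. CCL19 points of Slamf7, Slamf1 and Cd84 lie above all no-CCL19 points of the same gene, while those of Ly9, Cd48 and Slamf6 mix with them.

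The promoters of 5 cluster genes are shown because genes a short distance apart differed in their calls; they run from 250 bases before to 50 bases after the annotated start, 5′ to 3′ along the gene, from RefSeq on GRCm38.p6, the assembly of mm10. RefSeq promoters were matched for 5 of the 10 genes and for Slamf7, whose RefSeq start lies inside the span that the count table gives. Capitals mark matches on either strand to the AP-1 motif TGANTCA and to GGAAA, the core bound by NFAT, and a reverse-strand GGAAA appears as its complement.
Slamf7 (chr1:171648950-171649249, minus strand): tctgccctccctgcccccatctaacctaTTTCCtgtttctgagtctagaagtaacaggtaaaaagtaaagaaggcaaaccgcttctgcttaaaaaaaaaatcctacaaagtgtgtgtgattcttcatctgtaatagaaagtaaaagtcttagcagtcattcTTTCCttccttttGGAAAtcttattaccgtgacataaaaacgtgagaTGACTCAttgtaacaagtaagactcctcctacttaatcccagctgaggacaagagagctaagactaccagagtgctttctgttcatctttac
Slamf1 (chr1:171766882-171767181, plus strand): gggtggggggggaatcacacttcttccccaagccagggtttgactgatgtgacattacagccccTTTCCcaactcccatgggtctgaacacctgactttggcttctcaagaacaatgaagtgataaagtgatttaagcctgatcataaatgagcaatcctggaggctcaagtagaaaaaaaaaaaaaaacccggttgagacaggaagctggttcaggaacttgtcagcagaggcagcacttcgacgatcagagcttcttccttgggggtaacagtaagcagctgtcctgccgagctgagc
Cd84 (chr1:171839447-171839746, plus strand): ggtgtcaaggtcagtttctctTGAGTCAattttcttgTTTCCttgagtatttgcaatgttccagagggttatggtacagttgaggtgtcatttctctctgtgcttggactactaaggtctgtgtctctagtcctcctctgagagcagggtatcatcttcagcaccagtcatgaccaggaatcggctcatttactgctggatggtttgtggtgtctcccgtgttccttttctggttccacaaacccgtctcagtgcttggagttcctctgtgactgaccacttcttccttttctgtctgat
Cd48 (chr1:171681742-171682041, plus strand): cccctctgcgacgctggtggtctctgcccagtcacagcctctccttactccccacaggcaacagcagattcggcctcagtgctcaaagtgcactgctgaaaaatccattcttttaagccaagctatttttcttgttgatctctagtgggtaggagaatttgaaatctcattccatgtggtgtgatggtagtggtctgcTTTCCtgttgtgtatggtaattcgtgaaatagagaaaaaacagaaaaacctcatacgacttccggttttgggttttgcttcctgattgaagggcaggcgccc
Slamf6 (chr1:171917212-171917511, plus strand): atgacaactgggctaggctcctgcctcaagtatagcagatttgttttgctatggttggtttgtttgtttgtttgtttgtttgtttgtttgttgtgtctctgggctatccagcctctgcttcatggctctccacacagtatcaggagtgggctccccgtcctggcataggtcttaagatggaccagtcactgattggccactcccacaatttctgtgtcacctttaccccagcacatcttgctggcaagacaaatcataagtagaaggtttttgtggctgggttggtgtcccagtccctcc
The AP-1 motif occurred once in the Slamf7 window, beginning at base -42 from the start, and once in the Cd84 window, beginning at base -229, and had no match in the windows of Slamf1, Cd48 and Slamf6. It is found in 7.81% of the 32851 mouse promoters of the same length in the table, and GGAAA in 61.3%. GGAAA matched at 3 places in Slamf7, at 1 place each in Slamf1, Cd84 and Cd48, and at none in Slamf6. Neither motif separated the called genes from the others in these windows: Slamf1, which DESeq2 called, and Cd48, which it did not, each had 1 GGAAA and no AP-1 match. Ly9, which was not called, had no matched promoter. RUNX (TGNGGT, in 45.8% of promoters), STAT and E-box motifs were searched too. RUNX matched in Cd84, Cd48 and Slamf6, and STAT and E-box in none of the windows shown. The matches describe letters in these windows and carry no measurement of binding.

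Cd48 (NCBI Gene 12506, chromosome 1, 171682055 to 171705257) encodes the lipid-anchored ligand of CD2 and of 2B4. Its level was 64.6, 65.3 and 68.4 CPM with CCL19 and 74.0, 65.7 and 69.4 CPM without it. CCL19 replicate 3 lay above no-CCL19 replicate 2, so the groups overlapped, and the log2 fold change was -0.08 with a 95% interval from -0.24 to 0.08 (edgeR adjusted p = 0.537).

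Cd2 (NCBI Gene 12481, chromosome 3, 101275908 to 101287939), the gene of the receptor for CD48, stood at 225, 229.6 and 239 CPM with CCL19 and 244, 244 and 238 CPM without it. CCL19 replicate 3 lay just above no-CCL19 replicate 3, and the log2 fold change was -0.06 with a 95% interval from -0.22 to 0.09 (edgeR adjusted p = 0.588). The ratio of Cd2 to Cd48 counts was 3.48, 3.51 and 3.50 in the CCL19 libraries and 3.29, 3.71 and 3.43 in the no-CCL19 libraries. The ratio of read counts, not corrected for gene length, was thus nearly the same in all CCL19 libraries, inside the wider range of the no-CCL19 libraries.

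Sh2d1a (NCBI Gene 20400, chromosome X, 42502565 to 42522097) encodes SAP, the adaptor that links SLAM receptor tails to FYN. It had 19.7, 22.1 and 26.0 CPM with CCL19 and 28.7, 27.0 and 28.4 CPM without it. Every CCL19 library was lower, and CCL19 replicate 3 was nearest to the other group. The means were 22.6 ± 3.20 CPM with CCL19 and 28.1 ± 0.919 CPM without it (SD, n = 3 each), a log2 fold change of -0.31 ± 0.11 (SE; 95% interval -0.53 to -0.08; edgeR adjusted p = 0.0867, DESeq2 adjusted p = 0.0724). Without CCL19 replicate 3 the value was -0.43 and passed (edgeR adjusted p = 0.0209, DESeq2 adjusted p = 0.0136), and without CCL19 replicate 1 it was -0.23 (edgeR adjusted p = 0.292). In GENCODE M21, 26.6% of the exon bases of Sh2d1a are shared with exons of Tenm1 on the opposite strand, and the table lists Tenm1 with no count in any library. The spans given with the counts do not overlap, as Sh2d1a ends at 42522097 and Tenm1 begins at 42532391.

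Counts of the 4 SLAM receptor genes per count of Sh2d1a did not overlap between the groups, with the CCL19 libraries higher, but the same held for 43.5% of the other 11665 tested genes (0.72% had the CCL19 libraries lower), and Sh2d1a's own level did not overlap. Cd3e, a T cell receptor subunit whose own level overlapped, is 1 of these genes, with 17.4, 14.3 and 13.2 counts per Sh2d1a count with CCL19 and 12.3, 12.4 and 11.9 without it. For Slamf1 the ratio was 20.8, 16.9 and 13.0 with CCL19 and 8.65, 11.8 and 10.1 without it, and for Slamf6 it was 5.85, 5.19 and 4.74 with CCL19 and 4.26, 4.08 and 4.23 without it. These ratios are of raw counts within a library, share their denominator, and show nothing particular to the SLAM receptors.

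Crtam (NCBI Gene 54698, chromosome 9, 40972798 to 41004628) encodes the nectin-like receptor that activated cytotoxic cells and a part of activated CD4+ T cells display. Its level was 101, 100.3 and 94.8 CPM with CCL19 and 64.3, 88.2 and 78.3 CPM without it. The CCL19 libraries lay close together and above all others, and the no-CCL19 libraries were more widely spread. The means were 98.8 ± 3.47 CPM with CCL19 and 76.9 ± 12.0 CPM without it (SD, n = 3 each), a log2 fold change of 0.36 ± 0.10 (SE; edgeR adjusted p = 0.0567, DESeq2 adjusted p = 0.0184). It was 0.24 without no-CCL19 replicate 1 (DESeq2 adjusted p = 0.115), and DESeq2 also lost the call without CCL19 replicate 1 (0.34, DESeq2 adjusted p = 0.108) and without CCL19 replicate 2 (0.35, DESeq2 adjusted p = 0.116).

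Among the cell types best known for Crtam, Slamf7, Cd96 and Cd226, markers were summed for CD8 T cells and natural killer cells. The summed level of 5 CD8 T cell markers was 30.5 to 37.3 CPM with CCL19 and 31.2 to 33.9 CPM without it, and that of 6 natural killer cell markers was 18.7 to 20.6 CPM with CCL19 and 21.5 to 22.6 CPM without it. Every marker in both lists had a count in at least 1 library. The CD8 sums overlapped between the groups. The natural killer sums were lower with CCL19, though each of the 6 markers overlapped on its own. Prf1 held most of that sum, at a mean of 17.4 CPM with CCL19 and 19.0 CPM without it. Plasma cell markers were not measured as a list, and the part of other cell types in these genes' levels was not tested.

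Cd226 (NCBI Gene 225825, chromosome 18, 89197427 to 89270327) encodes DNAM-1, the activating receptor for CD155. It had the fewest counts of the 10, 194 to 306 in a library, and its level was 11.7, 10.1 and 12.7 CPM with CCL19 and 12.6, 10.7 and 12.4 CPM without it. The groups overlapped fully, and the log2 fold change of -0.06 had the widest interval of the 10, from -0.33 to 0.22 (edgeR adjusted p = 0.811).

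Cd96 (NCBI Gene 84544, chromosome 16, 46035657 to 46120248) encodes TACTILE, another receptor for CD155. It had 51.3, 59.3 and 68.5 CPM with CCL19 and 74.5, 61.1 and 66.3 CPM without it. CCL19 replicates 1 and 2 lay below all no-CCL19 libraries, and CCL19 replicate 3 lay among them. The log2 fold change was -0.17 with a 95% interval from -0.39 to 0.05 (edgeR adjusted p = 0.31), and it was -0.29 without CCL19 replicate 3 (edgeR adjusted p = 0.0698) and -0.08 without CCL19 replicate 1 (edgeR adjusted p = 0.723). The ratio of Crtam to Cd96 counts was 1.97, 1.69 and 1.38 with CCL19 and 0.863, 1.44 and 1.18 without it, and the groups overlapped.

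The libraries at the edges were the same for several of these genes. CCL19 replicate 1 was highest of all 6 libraries for Slamf1, Cd84, Crtam and Slamf7 and lowest for Sh2d1a and Cd96, and no-CCL19 replicate 1 was lowest for Slamf1, Cd84, Crtam and Slamf7 and highest for Sh2d1a and Cd96. The activation genes Il2ra and Cd69 had their highest and lowest values in the same libraries. Il2ra, whose protein gives the interleukin-2 receptor its high affinity, was at 441, 386 and 336 CPM with CCL19 and 216, 288 and 289.8 CPM without it. Cd69, an early surface marker of activation, was at 582, 500.3 and 472 CPM with CCL19 and 320.5, 398 and 424 CPM without it. DESeq2 called both higher with CCL19 (DESeq2 adjusted p = 0.00183 for Il2ra and 0.00375 for Cd69), and edgeR called neither (edgeR adjusted p = 0.0505 for each). The summed level of 6 markers of the naive state was 3309 to 4186 CPM with CCL19 and 4187 to 5122 CPM without it, and that of 10 myeloid and dendritic cell markers was 40.9 to 44.3 CPM with CCL19 and 45.4 to 53.9 CPM without it. Cst3 alone held most of the myeloid sum, at a mean of 29.7 CPM with CCL19 and 35.0 CPM without it. Of those 10 markers, 8 overlapped between the groups and 2 were lower with CCL19. The part of these levels and of the shared order of libraries in the differences between groups was not tested.

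**Figure D4:**
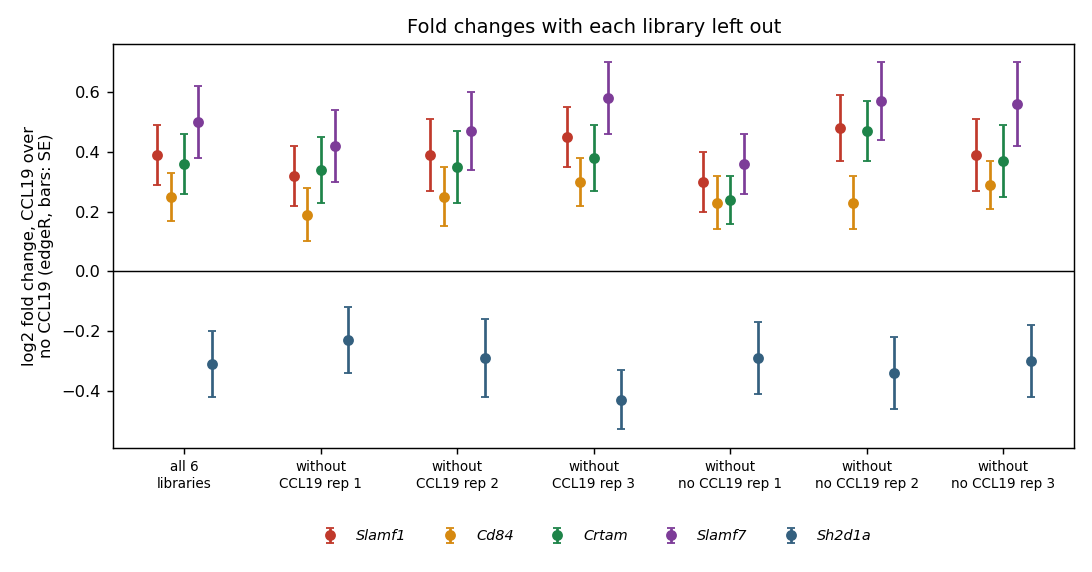
Log2 fold change, CCL19 over no CCL19, of Slamf1, Cd84, Crtam, Slamf7 and Sh2d1a from edgeR with all 6 libraries and with each library left out in turn (bars are SE). Every value kept its sign. The values for Slamf1, Crtam and Slamf7 were lowest without no-CCL19 replicate 1, and those for Cd84 and Sh2d1a lay nearest 0 without CCL19 replicate 1.

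Genes with GC-rich transcripts tended to have lower log2 fold changes (Spearman correlation -0.329 across 11188 genes, which are not independent replicates). The 10 genes had 41.3% to 51.0% GC, against a median of 50.8% over those genes. When edgeR was given an offset for both GC content and length, Slamf1 had a log2 fold change of 0.30, Cd84 of 0.17, Crtam of 0.32 and Sh2d1a of -0.41 (edgeR adjusted p = 0.114, 0.188, 0.0986 and 0.0943, in that order). Under the same offset Cd48 stood at -0.19 (edgeR adjusted p = 0.135) and Slamf6 at -0.08 (edgeR adjusted p = 0.445).

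Among the other genes of these pathways 1 was called. Of 32 partner genes listed in the table, 23 passed the filter, and their median log2 fold change was 0.01. None was called by edgeR, as for all tested genes (0%). Of the 20 with a DESeq2 adjusted p, DESeq2 called 1 higher, Slamf7, and none lower. Among all genes with a DESeq2 adjusted p the shares were 6.55% higher and 5.6% lower. Among genes of SLAM and CD2 signalling, Fyn, the kinase that SAP recruits, had 695 ± 53.7 CPM with CCL19 and 609.9 ± 50.6 CPM without it (SD, n = 3 each; log2 fold change 0.19, edgeR adjusted p = 0.191). Prkcq, the protein kinase C theta that acts downstream of the T cell receptor and of SAP, was at -0.07 (edgeR adjusted p = 0.6), and Cd2ap, which binds the CD2 tail, at 0.13 (edgeR adjusted p = 0.344). Sh2d1b1, the gene of the related adaptor EAT-2, had at most 5 counts in a library and was not tested.

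On the side of the nectin-binding receptors, the ligand and rival genes that were tested gave no calls. Pvr, which encodes CD155, was measured at 46.3, 48.7 and 47.2 CPM with CCL19 and 43.9, 45.2 and 41.4 CPM without it. Its groups did not overlap, but the difference was small (log2 fold change 0.12, edgeR adjusted p = 0.322). Tigit, the inhibitory rival of CD226, was at 4.99, 5.67 and 5.66 CPM with CCL19 and 5.99, 5.79 and 6.84 CPM without it, lower in every CCL19 library (log2 fold change -0.18, edgeR adjusted p = 0.465). Scrib, the polarity protein that binds the CRTAM tail, stood at -0.08 (edgeR adjusted p = 0.57). The genes of the nectins Nectin2 and Nectin3 and of the CRTAM ligand Cadm1 had at most 7 counts in any library and were not tested.

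Levels of different genes were ranked only per length, as CPM per kilobase of annotated exon (RPKM, computed here). The sum, shares and count ratios given above are not corrected for length and serve to compare libraries. Cd2 was the highest, at 133 ± 4.19 RPKM with CCL19 and 139 ± 1.93 RPKM without it, and Cd226 the lowest, at 2.34 ± 0.268 and 2.43 ± 0.215 RPKM (SD, n = 3 each). In between, without CCL19, came Cd48 (58.6), Ly9 (46.2), Slamf1 (46.2), Cd96 (30.8), Cd84 (21.3), Crtam (15.0), Slamf6 (10.9) and Sh2d1a (5.10 RPKM), and over the 6 libraries the neighbours Ly9 and Slamf1, and Cd96 and Cd84, overlapped. With CCL19, Slamf1 averaged 60.6 ± 5.93 RPKM and Cd48 55.6 ± 1.68 RPKM, and these overlapped, since in CCL19 replicate 3 Slamf1 had 54.7 and Cd48 57.5 RPKM. The places in between depend on which length is used: with the median annotated transcript in place of all exons, Slamf6 moved to 118 RPKM and second place without CCL19, while Cd2 stayed highest and Cd226 lowest.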

How the data were processed

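Messenger RNA was sequenced in 6 libraries. The authors aligned reads with STAR 2.5 to mm10 and counted them with featureCounts 1.5.0-p1 of Subread, per the submitters' processing notes, from Illumina TruSeq libraries, per the labels' protocols. Raw counts of reads for each gene were deposited, and a second deposited table gives the direction of changed genes in words (DESeq2 1.28.1 is among the authors' tools per the submitters' processing notes). The labels state neither the strand setting nor the annotation release, nor how reads that match several places were counted.

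Groups came from the sample titles. The libraries held 16978736 to 27429898 counts, and 11666 genes passed edgeR's filterByExpr. CCL19 was compared with no CCL19 by edgeR 4.0.16 (TMM, quasi-likelihood F test, Benjamini-Hochberg over all tested genes, threshold 0.05) in R 4.3.3. Intervals at 95% are for single genes and use the edgeR SE. DESeq2 1.42.0 (independent filtering at 0.1) and limma 3.58.1 (voom) were alternatives, as were other filters, size factors, a robust prior, a replicate block, a GC and length offset (splines with 5 degrees of freedom) and leaving out each library. Pairing by replicate number was checked before calls were compared. Deviations from group means of same-numbered libraries correlated at -0.164, 0.0814 and -0.0207, and those of differently numbered libraries at -0.214 to 0.217. With 3 libraries per group these values cannot settle whether the numbers pair libraries, and the main test left them unpaired. The tests were tried on simulated data.

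RPKM, GC content and exon overlaps used GENCODE M21 on the same assembly, which gave GC and length for 95.9% of tested genes. Figures were drawn with matplotlib 3.10.9. The genes, the partner and marker lists and the tests were chosen with earlier results of these data known. The text names the 10 genes, partner genes called by edgeR or DESeq2, fixed direct partners, and Cd4, Cd3e, Il2ra and Cd69; other genes, among them Gm37787, Tenm1 and Mir7683, were named after their values were seen.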

Additional observations from a re-analysis of the deposited data

How the results depend on the processing

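No gene, member or partner was called by edgeR with all libraries, and that held with DESeq2 size factors, a minimum of 1 CPM in 3 libraries, limma-voom and the GC and length offset. In the main edgeR test the lowest adjusted p was 0.0505, just past the threshold. With no filter on low counts edgeR called 1600 genes, 4 of the 10 (Slamf1, Cd84 and Crtam higher, Sh2d1a lower) and 1 partner; with a robust prior it called 529 genes, 2 of the 10 (Slamf1 and Crtam) and 1 partner. DESeq2 called 1168 genes, 3 of the 10 and 1 partner. With single libraries left out, edgeR called 0 to 1599 genes, 0 to 4 of the 10 and 0 to 1 partners, with 1599 without CCL19 replicate 3 and 513 without no-CCL19 replicate 3, and DESeq2 called 55 to 1704 genes, 0 to 4 of the 10 and 0 to 2 partners. DESeq2 called 55, 123 and 105 genes and 0 of the 10 without CCL19 replicate 1, CCL19 replicate 2 and no-CCL19 replicate 1, and 1010 and 1258 genes without no-CCL19 replicates 2 and 3. The cause of these shifts was not tested.

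Slamf1, Ly9, Cd84, Cd48, Cd2, Sh2d1a, Cd96 and Crtam kept their sign under all 21 alternatives, with ranges of 0.30 to 0.48 for Slamf1, 0.16 to 0.31 for Cd84, 0.24 to 0.47 for Crtam and -0.43 to -0.23 for Sh2d1a. Slamf6 ranged from -0.05 to 0.03 with single libraries left out in edgeR, and changed sign with no filter (-0.0034), with the 1 CPM minimum (-0.01), with the GC and length offset (-0.08, with or without the block), without CCL19 replicate 3 (-0.04; DESeq2 -0.03) and without no-CCL19 replicate 2 (-0.05; DESeq2 -0.04). Cd226 ranged from -0.16, with the GC and length offset, to 0.04 over all alternatives and from -0.14 to 0.04 with single libraries left out in edgeR, and changed sign without CCL19 replicate 2 (0.04 in both tools). The cause was not tested.

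Whether the replicate numbers pair the libraries was not settled, and only CCL19 replicate 2 correlated best with its own number. With a replicate block edgeR called 0 genes, alone or with the GC and length offset, and the log2 fold change was 0.39 for Slamf1 (edgeR adjusted p = 0.162), 0.25 for Cd84 and -0.32 for Sh2d1a. Depth limits Cd226 most, with 194 to 306 counts in a library.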

Other observations

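Signalling through SLAM receptors and SAP is best known in follicular helper T cells, and 4 marker genes of that state were measured. Bcl6, its lineage factor, averaged 118 CPM with CCL19 and 109 CPM without it. Pdcd1, the gene of the receptor PD-1, averaged 190.3 CPM with CCL19 and 157 CPM without it, and did not pass in DESeq2 (adjusted p = 0.0521). Cxcr5, the chemokine receptor that leads these cells to B cell follicles, was low in both groups, at 5.47 CPM with CCL19 and 5.39 CPM without it. Il21, their hallmark cytokine, was at 0.698 and 0.545 CPM, with and without CCL19, from 10 to 20 counts in a library. Its level was higher in every CCL19 library (edgeR adjusted p = 0.547), and the groups of the other 3 genes overlapped. The summed level of the 4 genes was 286 to 347 CPM with CCL19 and 244 to 292 CPM without it, and the ranges overlapped.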
